A study of Mus musculus with 8 samples.

Results

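The genes described here code for 7 enzymes of cholesterol synthesis and for 1 regulator of the pathway, in the mesenchyme (connective tissue that surrounds the branching airways) of lungs from CD1 mouse embryos at e11.5 to e12.5. They were chosen by symbol, as all probe sets that the platform annotation assigns to Hmgcs1, Idi1, Fdps, Fdft1, Sqle, Lss, Cyp51 or Insig1. This gave 21 of the 45101 probe sets on the Affymetrix array, with at least 1 for each of the 8 genes. None of the 8 takes up cholesterol, and genes of uptake were followed as a separate list. RNA was measured in 4 groups, each of 2 arrays. Tip pieces came from the mesenchyme at the growing branch ends and were taken straight after dissection. Stalk mesenchyme, from around the airway behind the tips, was cultured for 12 h on plastic. The medium was growth medium with WNT1, a secreted signalling protein, at 400 ng/ml (Wnt1 culture) or growth medium alone (control culture). Uncultured stalk was taken straight after dissection. All groups share the strain and the range of stages, and no genetic change is named. The labels do not say whether replicates came from separate litters or how many embryos were pooled, so the p-values reflect the spread among these arrays alone, and that spread may be technical.

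Cells make cholesterol from acetyl-CoA through mevalonate, isoprenoid diphosphates, squalene and lanosterol, and the intermediates also feed the prenylation of proteins. The genes of this route are known to be controlled together by SREBP transcription factors, which the escort protein Scap carries from the endoplasmic reticulum to the Golgi for cleavage when membrane sterol is low. Insig proteins hold Scap back when sterol is plentiful, and Insig1 is itself an SREBP target. In the embryo, cholesterol is also needed for the hedgehog signal, whose ligand carries it.

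The promoter windows of Hmgcs1 and Idi1 are shown because these were the enzymes with a probe set past the threshold in control culture. Each runs from 250 bases before to 50 after the gene's start (RefSeq, build GRCm38.p6), and 5 of the 8 genes, Hmgcs1, Idi1, Lss, Cyp51 and Insig1, had a window in that table. Hmgcs1 lies at chr13:119690101-119690400 on the plus strand, and Idi1 at chr13:8885356-8885655 on the plus strand. Capitals mark matches, on either strand, to the sterol regulatory element TCACNCCAC, to which SREBP binds, and to the boxes CCAAT of NF-Y and GGGCGG of Sp1, factors known to act beside SREBP. No matches of different motifs overlapped in these windows.
Hmgcs1: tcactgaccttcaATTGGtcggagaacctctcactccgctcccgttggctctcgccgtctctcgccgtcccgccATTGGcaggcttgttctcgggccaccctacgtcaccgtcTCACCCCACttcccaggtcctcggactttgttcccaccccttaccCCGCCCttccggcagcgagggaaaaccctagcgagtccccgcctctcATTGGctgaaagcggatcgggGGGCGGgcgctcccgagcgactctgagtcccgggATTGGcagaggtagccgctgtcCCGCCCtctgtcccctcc
Idi1: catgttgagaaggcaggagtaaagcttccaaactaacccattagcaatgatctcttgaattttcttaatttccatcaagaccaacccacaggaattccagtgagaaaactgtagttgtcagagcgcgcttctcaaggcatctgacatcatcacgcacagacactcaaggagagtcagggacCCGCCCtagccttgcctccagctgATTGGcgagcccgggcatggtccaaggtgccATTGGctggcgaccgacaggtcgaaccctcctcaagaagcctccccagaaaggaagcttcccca
The Hmgcs1 window held 1 match to the sterol element, written TCACCCCAC, from position -137 to -129, with 4 CCAAT and 3 GGGCGG boxes. The Idi1 window held 2 CCAAT boxes, 1 GGGCGG box and no match to the sterol element. The windows of Lss, Cyp51 and Insig1 also held no match to that element, with 1 CCAAT box each and 1 to 3 GGGCGG boxes. Of 32851 windows in the table, 1.24% held the sterol element, 37.4% a CCAAT box and 35.7% a GGGCGG box. A match is a description of the letters and not a binding site. Only this 1 pattern of the sterol element was searched, so a window without a match may still hold a variant of it.

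The values are signal intensities on a linear scale. Array medians were 149 to 299 in culture and 76.5 to 99.8 without it. Actb control probe sets at the 3' and 5' ends of the transcript, whose signal ratio rises with degraded RNA or short labelled product, gave a ratio of 6.81 to 24.4 on culture arrays and 2.02 to 4.52 on uncultured arrays. Replicates correlated across genes at 0.974 for tip and 0.975 for stalk, and at 0.833 for Wnt1 culture and 0.824 for control culture, genes not being independent. Of 11 markers of lung mesenchyme, 10 lay above the highest array median, 299, on all uncultured arrays, and Twist1 did not. In culture these markers moved too, with 7 of 11 called lower and 1 higher in Wnt1 culture (median log2 fold change -1.72) and likewise 7 and 1 in control culture (-1.41), among them Wnt2 (-3.34 and -2.60) and Tbx4 (-1.77 and -2.19). Markers of other cells gave signal too. Above 299 on all uncultured arrays were 1 of 9 macrophage, 2 of 9 endothelial and 3 of 10 epithelial markers. For smooth muscle it was 1 of 6 and for erythroid cells 4 of 6, so a sum can rest on a few bright genes. The summed macrophage markers (9 of 9 on the array) were at 10726 to 11869 in Wnt1 culture and 12701 to 22671 in control culture, against 4000 to 4558 in stalk. The endothelial sum (9 of 9) was at 989 to 2011 in Wnt1 culture and 1759 to 2005 in control culture, against 8024 to 9244 in stalk, with Pecam1 and Tie1 under 299 on every array. Epithelial markers (10 of 10) summed to 7793 to 21043 in Wnt1 culture and 8160 to 9693 in control culture, against 4427 to 5278 in stalk, with Cdh1 and Sox2 under 299 throughout. Smooth muscle markers (6 of 6) summed to 148239 to 176504 in Wnt1 culture and 108513 to 125035 in control culture, against 4722 to 6059 in stalk. Erythroid markers (6 of 7) summed to 134273 to 233174 in Wnt1 culture and 146273 to 338680 in control culture, against 50648 to 94119 in stalk. That sum is mostly Hbb-y, while 4 of the 5 erythroid markers tested lay below 0 in both cultures (medians of -1.16 in Wnt1 culture and -1.45 in control culture). Of the 9 macrophage markers 4 were called higher in each culture, and of the 10 epithelial markers 1 in Wnt1 culture and 2 in control culture. Of the 6 smooth muscle markers 4 were called higher in each. Of 8 endothelial markers tested, 4 in Wnt1 culture and 5 in control culture were lower. Over all genes 9.35% and 17.1% were called higher in that order, and 6.88% and 9.26% lower. Where pieces hold several cell types, fewer cells of a type and less RNA per cell cannot be told apart. The part of these shifts in the results below was not tested.

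By their brightest probe sets, 4 of the 8 genes lay above 0 and 4 below in each comparison of cultured stalk with stalk. A common shift was not tested. Idi1 fell in control culture and Sqle fell in Wnt1 culture, and the other tests of a gene's brightest probe set in culture against stalk did not pass the threshold (limma over 16115 genes, adjusted p under 0.05). In control culture 1 of the 8 genes was called lower and 0 higher, beside 9.26% of all genes called lower and 17.1% higher. In Wnt1 culture it was again 1 lower and 0 higher, beside 6.88% and 9.35%. At an unadjusted p under 0.05 there were 3 of the 8 in control culture and 1 in Wnt1 culture, where 6958 and 6045 of the 16115 genes were under it, so neither count stands above that of all genes. The median log2 fold change of the 8 was 0.01 in Wnt1 culture and 0.13 in control culture, beside 0.35 and 0.45 over all genes in the same order. In each, 7 of the 8 lay under the median gene. With each array centred on its median, the median of the 8 was -0.32 and -0.33. The groups did not overlap for 2 genes higher and 2 lower in control culture, where 46.1% and 25.4% of all genes did not, and for 1 higher and 2 lower in Wnt1 culture, where 41.5% and 25.5% did not. Both comparisons use the same 2 stalk arrays.

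**Figure D1:**
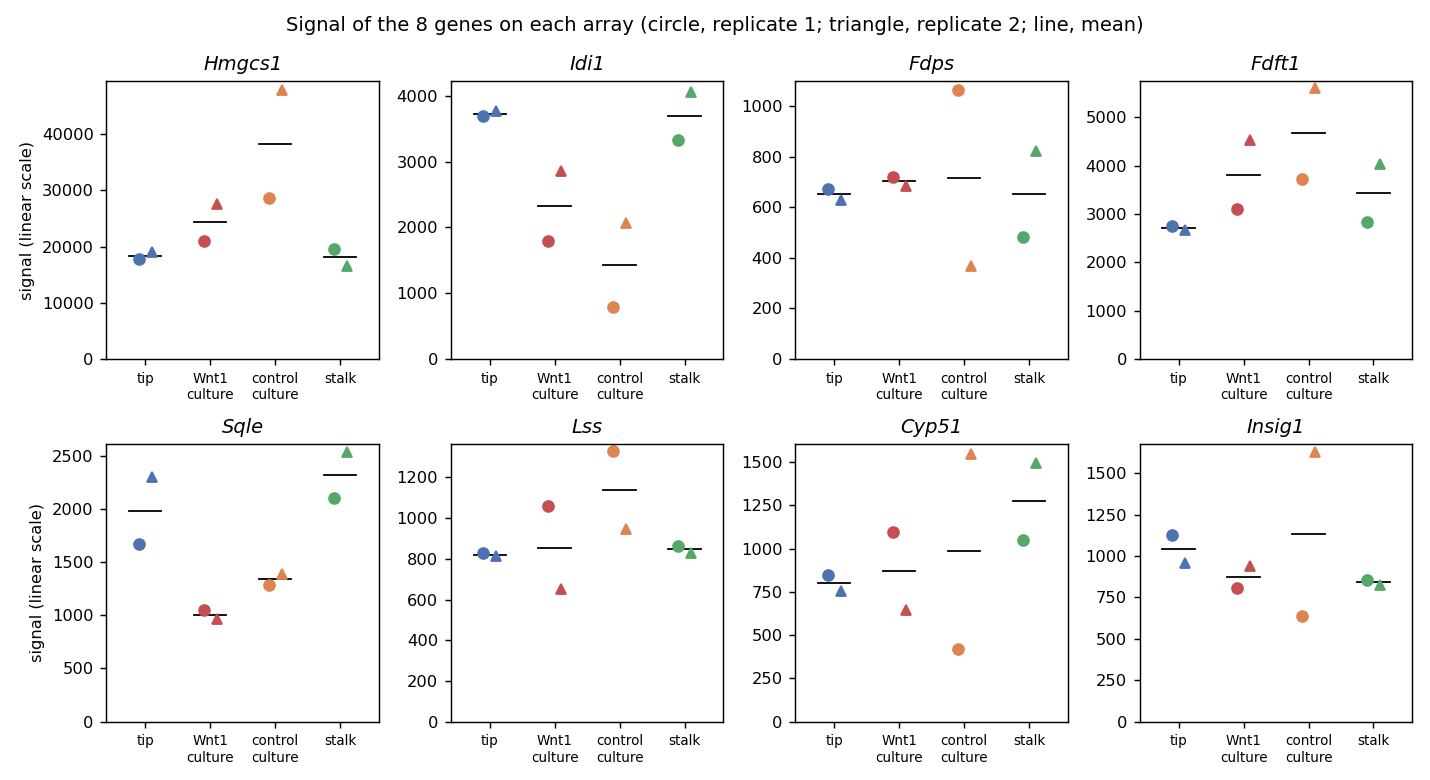
Signal (linear scale) of the brightest probe set of each of the 8 genes on the 8 arrays, by group, with circles for replicate 1, triangles for replicate 2 and lines for the mean of the 2. Idi1 and Sqle lie lower on all 4 culture arrays than on both stalk arrays, Hmgcs1 lies higher, and Fdps, Cyp51 and Insig1 spread widely within control culture.

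Hmgcs1 makes HMG-CoA, the precursor of mevalonate. Its brightest probe set had signals of 20963 and 27654 in Wnt1 culture and 28703 and 47887 in control culture, against 19626 and 16536 in stalk. All culture arrays were above both stalk arrays. The log2 fold change was 0.42 ± 0.45 (SE) in Wnt1 culture (limma, adjusted p = 0.51) and 1.04 ± 0.45 in control culture (adjusted p = 0.096, unadjusted p = 0.038).

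Idi1 interconverts the isoprenoid units isopentenyl and dimethylallyl diphosphate. It had signals of 1786 and 2861 in Wnt1 culture and 788 and 2069 in control culture, against 3332 and 4060 in stalk, with no overlap. It fell by 1.49 ± 0.43 (SE) on the log2 scale in control culture (limma, adjusted p = 0.027), while its change in Wnt1 culture was -0.69 ± 0.43 (adjusted p = 0.25). The call in control culture held in 12 of 19 alternatives, with an adjusted p of 0.0053 to 0.18 over them. It was lost without stalk replicate 1 (-1.63, adjusted p = 0.11), stalk replicate 2 (-1.35, 0.18) or control culture replicate 1 (-0.82, 0.16), the array with the lowest Idi1 signal. A second Idi1 probe set had a change of -0.21 ± 0.42 in control culture, and with the mean of both the value was -0.85 (adjusted p = 0.13).

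Fdps, which joins isoprenoid units into farnesyl diphosphate, had signals of 722 and 684 in Wnt1 culture and 1065 and 368 in control culture, against 483 and 823 in stalk. The stalk range contained both Wnt1 values and lay inside the control culture range. The log2 fold changes were 0.14 ± 0.47 and 0.00 ± 0.47 (SE), with a 95% interval of -1.01 to 1.01 in control culture.

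Fdft1, squalene synthase, commits farnesyl diphosphate to sterols. Its signals were 3096 and 4537 in Wnt1 culture and 3728 and 5606 in control culture, against 2833 and 4036 in stalk. The groups overlapped, and the log2 fold changes were 0.15 ± 0.36 and 0.43 ± 0.36 (SE; limma, adjusted p = 0.78 and 0.36).

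Sqle, squalene epoxidase, catalyses the first oxygenation step of the route and is a known control point. Its single probe set had signals of 1048 and 962 in Wnt1 culture and 1282 and 1391 in control culture, against 2105 and 2532 in stalk. Replicates lay close together in both culture groups, and the 4 culture arrays were all below stalk. Sqle fell by 1.17 ± 0.32 (SE) on the log2 scale in Wnt1 culture (limma, adjusted p = 0.032), a ratio of 0.445, and its change in control culture was -0.77 ± 0.32 (adjusted p = 0.088). The difference between the culture groups themselves was -0.40 ± 0.32 (adjusted p = 0.82). The call held in 12 of 19 alternatives (adjusted p from 0.022 to 0.25) and was lost without stalk replicate 1 (-1.30, adjusted p = 0.14), stalk replicate 2 (-1.04, 0.25) or Wnt1 culture replicate 1 (-1.23, 0.072). In control culture Sqle passed when each array was centred on its median (-1.23, adjusted p = 0.048).

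Lss, lanosterol synthase, closes the sterol ring system. It had signals of 1059 and 651 in Wnt1 culture and 1332 and 949 in control culture, against 865 and 828 in stalk. Both control culture arrays were above stalk while the Wnt1 arrays lay on either side of it. The log2 fold changes were -0.02 ± 0.36 and 0.39 ± 0.36 (SE; limma, adjusted p = 0.97 and 0.41).

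Cyp51 removes a methyl group from lanosterol. Its signals were 1094 and 646 in Wnt1 culture and 418 and 1549 in control culture, against 1050 and 1497 in stalk. The control culture arrays lay on either side of the stalk range. The log2 fold change was -0.55 ± 0.51 (SE) in Wnt1 culture and -0.60 ± 0.51 in control culture (limma, adjusted p = 0.44 and 0.38). Without control culture replicate 2 control culture minus stalk gave -1.49 (adjusted p = 0.024), and without replicate 1 it gave 0.29.

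Insig1, the regulator, had signals of 806 and 939 in Wnt1 culture and 636 and 1628 in control culture, against 854 and 828 in stalk. Again 1 control culture array was below stalk and the other above it. The log2 fold changes were 0.05 ± 0.42 and 0.27 ± 0.42 (SE), and in control culture the value was -0.38 without replicate 2 and 0.92 without replicate 1.

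Probe sets of a gene did not always move together. Hmgcs1 has 5, which match different parts of its transcripts or different transcripts, and their positions were not used here. The probe set 1433444_at had signals of 1035 and 1333 in Wnt1 culture and 939 and 1491 in control culture, against 3055 and 4006 in stalk. Its groups lay far apart, in the direction opposite to that of the brightest probe set, and its changes of -1.54 ± 0.35 and -1.53 ± 0.35 (SE) both passed when every probe set was tested on its own (limma over 29349 probe sets, adjusted p = 0.022 and 0.016). The probe set 1433445_x_at, whose suffix marks probes that can match other transcripts (the brightest Fdft1 probe set has it too), gave -1.35 ± 0.43 and -1.41 ± 0.43, of which the change in control culture passed (adjusted p = 0.060 and 0.039). In each culture comparison 3 of the 5 Hmgcs1 probe sets lay below 0 and 2 above. Of the 2 above, 1441536_at stayed under 299 on every array, and the other is the brightest probe set, which was not called. As the probe sets disagree, no direction is given for the gene. On this footing 3 of 19 probe sets of the 8 genes were called lower in control culture (7.38% of all probe sets, and 13.1% higher) and 2 of 19 in Wnt1 culture (4.96%, and 5.5% higher), and 0 were called higher. The 3 tested probe sets of Cyp51 all lay below 0 in both comparisons, from -1.20 to -0.29 in control culture, none past the threshold. Those of Fdft1 and Lss had both signs. Of the 21 probe sets, 2 did not pass the filter on low values and 6 stayed under 299 on every array. The culture arrays with these opposed changes are those with the higher Actb 3' to 5' ratio, whose part was not tested.

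**Figure D2:**
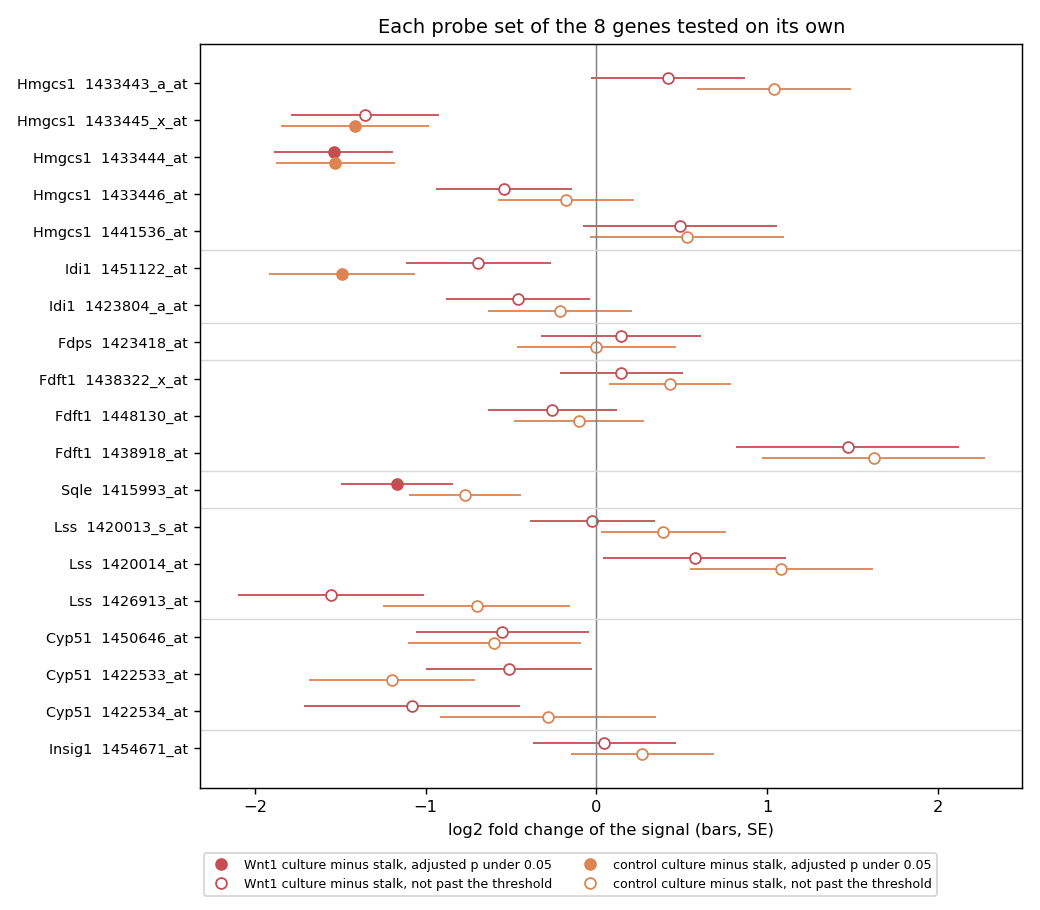
Log2 fold change, with SE bars, of each of the 19 tested probe sets of the 8 genes, in Wnt1 culture and in control culture against stalk, with filled points past the threshold. The Hmgcs1 probe set 1433443_a_at lies right of 0 in both comparisons, while 1433444_at and 1433445_x_at lie left of it, and the 3 Cyp51 probe sets lie left of 0.

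Among the 8 genes the spread between replicates was widest in control culture, while over all genes it was widest in Wnt1 culture. In control culture the median absolute log2 difference between the 2 arrays was 1.02 over the 8 genes, beside 0.65 over all genes. It was 0.47 beside 0.75 in Wnt1 culture, 0.10 beside 0.28 in tip and 0.27 beside 0.28 in stalk. Within control culture, replicate 2 was above replicate 1 by 1.78 for Cyp51, 1.35 for Idi1 and 1.30 for Insig1, while the difference for Fdps was -1.43. Of these, the one for Cyp51 exceeded the largest change of the 8 genes between groups, -1.49 for Idi1 in control culture against stalk. Sqle (0.11) was the gene with the closest values. With 2 arrays per group, the origin of this spread was not tested.

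**Figure D3:**
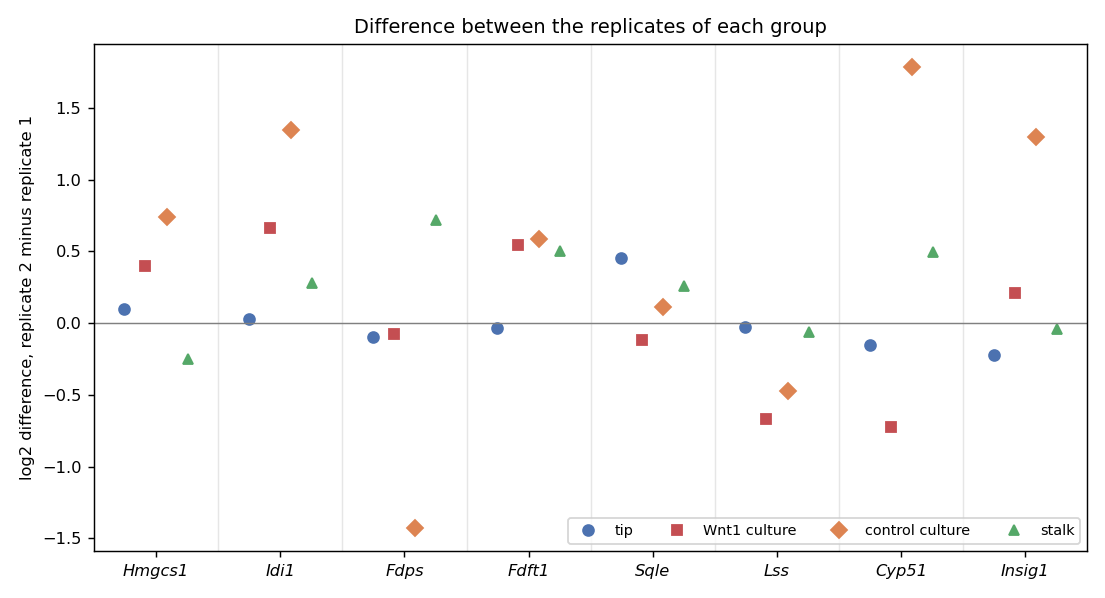
Log2 difference between the replicates of each group (replicate 2 minus replicate 1) for the brightest probe set of each of the 8 genes. The control culture points for Cyp51, Idi1 and Insig1 lie above 1.2 and that for Fdps below -1.4, while all tip and stalk points lie between -0.3 and 0.8.

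Wnt1 in the medium was not followed by a detected change of any of the 8 genes. None passed between Wnt1 and control culture (limma, smallest adjusted p = 0.66), nor did any of the 16115 genes (0%), and 0 of the 8 had an unadjusted p under 0.05 (1297 of all genes did). The log2 fold changes ran from -0.62 for Hmgcs1 to 0.80 for Idi1, with a median of -0.25 beside -0.08 over all genes. Idi1, with 1786 and 2861 in Wnt1 culture and 788 and 2069 in control culture, overlapped between the groups, and its 95% interval of -0.13 to 1.72 allows more than a doubling. Its second probe set was at -0.25 ± 0.42 (SE), on the other side of 0. For Insig1 the interval was -1.12 to 0.68 and for Cyp51 -1.06 to 1.15. By their brightest probe sets, Hmgcs1 and Sqle were the 2 genes without overlap, both lower with Wnt1, where 15.9% of all genes were lower and 10.1% higher without overlap. Of the 5 Hmgcs1 probe sets 4 lay below 0 and 1 above. Among them 1433444_at (-0.01), 1433445_x_at (0.06) and 1441536_at (-0.05) overlapped between the groups, so again no direction is given for the gene.

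No difference between tip and stalk mesenchyme was detected for the 8 genes, which does not show that their levels are equal. None of the 8, and none of all genes (0%), passed (limma, smallest adjusted p = 0.99992), and 0 of the 8 and 91 of all genes had an unadjusted p under 0.05. The spread in this fit came from all 8 arrays. Replicates differed by a median of 0.75 in Wnt1 culture and 0.65 in control culture over all genes, against 0.28 in tip and in stalk. The p-values and intervals for tip against stalk therefore tend to be too large. In a fit of the tip and stalk arrays only, 0 of all genes passed too. The median log2 fold change was -0.01, as against 0.01 over all genes. Cyp51 had the largest difference, with 848 and 757 in tip against 1050 and 1497 in stalk (-0.62 ± 0.51, SE). Fdft1 had 2746 and 2677 in tip against 2833 and 4036 in stalk (-0.31 ± 0.36). Insig1 had 1128 and 961 in tip against 854 and 828 in stalk (0.29 ± 0.42). These 3 genes, 2 lower and 1 higher, were those without overlap, a pattern of 16.2% and 18.2% of all genes. The other 5 genes overlapped between tip and stalk. Hmgcs1 had 17741 and 18962 in tip against 19626 and 16536 in stalk. Idi1 had 3691 and 3764 in tip against 3332 and 4060 in stalk, and the tip values lay inside the stalk range. Sqle had 1666 and 2296 in tip against 2105 and 2532 in stalk (-0.23 ± 0.32). For Fdps the tip signals, 674 and 629, lay between the stalk signals of 483 and 823. Lss differed little between arrays, with 829 and 813 in tip against 865 and 828 in stalk. Hmgcs1, Idi1 and Fdps had changes of 0.03, 0.02 and 0.04, each with a 95% interval of about 1 log2 unit to either side.

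Other genes of the pathway were taken from lists chosen by function. Among 12 other sterol enzymes tested, of 15 listed, 2 fell and 0 rose in Wnt1 culture, and 2 fell and 1 rose in control culture. Over all genes, 6.88% were called lower and 9.35% higher in Wnt1 culture, and 9.26% and 17.1% in control culture. Lbr, a sterol reductase that is also the lamin B receptor, had 771 and 965 in Wnt1 culture and 661 and 1317 in control culture, against 2800 and 3811 in stalk. It fell in both, with log2 fold changes of -1.87 ± 0.38 in Wnt1 culture and -1.76 ± 0.38 in control culture (SE; limma, adjusted p = 0.012 for both). Msmo1, a sterol methyl oxidase, had 442 and 490 in Wnt1 culture and 337 and 455 in control culture, against 973 and 1279 in stalk. It fell in both, with changes of -1.19 in Wnt1 culture and -1.41 in control culture (adjusted p = 0.042 and 0.019), while its other probe set lay above 0 (0.96 and 1.09, not called) and the mean of both was -0.12 and -0.16. Sc5d, a sterol desaturase, rose by 1.15 in control culture (adjusted p = 0.046), with stalk signals of 273 and 255, under 299. That call held in 8 of 19 alternatives, 1 of its 3 probe sets lay below 0 (-0.58) and the mean of the 3 was 0.61 (adjusted p = 0.19). The list median was -0.12 in Wnt1 culture and 0.24 in control culture.

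Genes that control SREBP were called lower at 3 of 6 in Wnt1 culture and 1 of 6 in control culture, with 0 higher in either. Of all genes, 6.88% were called lower and 9.35% higher in Wnt1 culture, and 9.26% and 17.1% in control culture. Scap, the escort protein, had 178 and 425 in Wnt1 culture and 480 and 786 in control culture, against 1170 and 1760 in stalk. It fell by 2.20 ± 0.43 (SE) in Wnt1 culture (limma, adjusted p = 0.011), and its change in control culture was -1.17 ± 0.43 (adjusted p = 0.061). Mbtps1 and Mbtps2 are the proteases that cut SREBP in the Golgi. Mbtps2 had 250 and 300 in Wnt1 culture and 387 and 766 in control culture, against 1135 and 1238 in stalk. It fell by 1.95 ± 0.39 in Wnt1 culture (adjusted p = 0.012). In Wnt1 culture the 178 of Scap and the 250 of Mbtps2 lay under the highest array median. With signals under that median set to it, Scap was at -1.88 and Mbtps2 at -1.84. Neither passed then (limma, adjusted p = 0.070 and 0.073). Mbtps1 fell by 0.98 in Wnt1 culture and by 1.12 in control culture. Its call in Wnt1 culture held in 6 of 19 alternatives, and the mean of its 3 probe sets was -0.04 in Wnt1 culture and 0.13 in control culture (adjusted p = 0.95 and 0.82). For Scap and Mbtps2 the difference between the culture groups was -1.03 and -0.89 (adjusted p = 0.58 and 0.60). The SREBP genes themselves, Srebf1 and Srebf2, were at -0.61 and 1.60 in Wnt1 culture and at -0.09 and 0.60 in control culture, none past the threshold. Srebf2 had 680 and 450 in Wnt1 culture and 95.7 and 594 in control culture, against 110 and 208 in stalk, both under 299.

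In the uptake and trafficking list, 1 of 7 tested genes rose and 1 fell in each culture comparison. The shares of all genes called higher and lower were 9.35% and 6.88% in Wnt1 culture, and 17.1% and 9.26% in control culture. Vldlr, a lipoprotein receptor, had 1543 and 711 in Wnt1 culture and 939 and 792 in control culture, against 314 and 351 in stalk. It rose by 1.54 ± 0.42 in Wnt1 culture and by 1.27 ± 0.42 in control culture (SE; limma, adjusted p = 0.031 and 0.043), with 3 and 2 of its 5 probe sets above 0. The mean of the 5 was 0.66 in Wnt1 culture and 0.47 in control culture (adjusted p = 0.31 and 0.45), and without Wnt1 culture replicate 1 the change in Wnt1 culture was 1.01 (adjusted p = 0.13). Stard4, which carries cholesterol between membranes and is an SREBP target, had 530 and 474 in Wnt1 culture and 472 and 611 in control culture, against 1085 and 1884 in stalk. It fell in both, with changes of -1.44 in Wnt1 culture and -1.34 in control culture (adjusted p = 0.026 and 0.024), with all 3 probe sets below 0 and 1 of them called in each. The mean of the 3 was -1.19 in Wnt1 culture (adjusted p = 0.041) and -0.66 in control culture (0.16). Among 5 tested genes of liver X receptors and efflux, 2 rose in control culture, where 17.1% of all genes did, and none passed in Wnt1 culture. The list had 3 genes above 0 and 2 below in control culture, and 2 above and 3 below in Wnt1 culture. Abca1, an efflux gene, was at -0.93 in control culture and -1.20 in Wnt1 culture, not past the threshold (limma, adjusted p = 0.099 and 0.059). Nr1h3, a sterol-sensing receptor, was at 507 and 419 in control culture against 123 and 98.2 in stalk, both under 299 (1.71 ± 0.45, adjusted p = 0.021). With signals under 299 set to it, its change was 0.56 (adjusted p = 0.045). Abcg1, a cholesterol exporter, was at 613 and 741 in control culture against 279 and 146 in stalk, again under 299 (1.54 ± 0.46, adjusted p = 0.030). With that floor its change was 1.07 (adjusted p = 0.097). Macrophages are known to express both, and the macrophage sums given above were higher in culture too, a relation that was not tested.

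Fatty acid genes, of which several are SREBP targets, fell at 2 of 10 in Wnt1 culture and 3 of 10 in control culture, and 0 rose. Beside this, 6.88% of all genes were called lower and 9.35% higher in Wnt1 culture, and 9.26% and 17.1% in control culture. Elovl6, a fatty acid elongase, had 1298 and 852 in Wnt1 culture and 898 and 1042 in control culture, against 3698 and 3936 in stalk. It fell in both, with log2 fold changes of -1.82 ± 0.32 in Wnt1 culture and -1.93 ± 0.32 in control culture (SE; limma, adjusted p = 0.0080 and 0.0053). Another of its 3 probe sets lay above 0 (0.76 and 0.50), and the mean of the 3 was -0.62 and -0.71 (adjusted p = 0.17 and 0.11). Scd2, a desaturase, had 3453 and 4409 in Wnt1 culture and 1487 and 6213 in control culture, against 16984 and 16611 in stalk. It fell in both, with changes of -2.09 in Wnt1 culture and -2.44 in control culture (adjusted p = 0.024 and 0.012), although 1 of its 3 probe sets rose in Wnt1 culture (3.07) and the mean of the 3 was -0.10 and -0.48. Without control culture replicate 1 its change there was -1.43 (adjusted p = 0.059). Fads1, another desaturase, fell by 1.14 in control culture (adjusted p = 0.032), with its other probe set at 0.16 and the mean of both at -0.49 (adjusted p = 0.29). The genes Fasn and Acaca, which build the fatty acid chain, were at -0.45 and -0.32 in Wnt1 culture and both at -0.07 in control culture, not past the threshold. Over the 5 lists the 13 genes had 20 calls in culture, and all 20 were lost without stalk replicate 1 and without stalk replicate 2. Over the arrays left out in turn, the highest adjusted p of each call was between 0.079 and 0.30. Of the 15 calls of genes with several probe sets, 14 were lost with the mean of the probe sets, and 14 of the 20 with the floor of 299. Of all 16115 genes, 4251 were called in control culture and 2615 in Wnt1 culture against stalk. These counts were 3820 and 2009 with the mean of the probe sets, and 728 and 330 with the floor. Counts over all genes also fell steeply without a stalk array. The losses with the floor or without a stalk array are thus not particular to the lists. Between Wnt1 and control culture, and between tip and stalk, no gene of the lists passed. Dhcr7, the last enzyme of the route, had the largest difference between the culture groups (-2.34 ± 0.70, adjusted p = 0.55), with 49.6 and 693 in Wnt1 culture against 999 and 1661 in control culture. It rests on 1 array, being -0.86 without Wnt1 culture replicate 1 and -3.83 (adjusted p = 0.032) without replicate 2. Lrp8, a lipoprotein receptor, was at 427 and 330 in Wnt1 culture, against 137 and 28.3, both under 299, in control culture. With the floor its difference was 0.29 (adjusted p = 0.65).

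**Figure D4:**
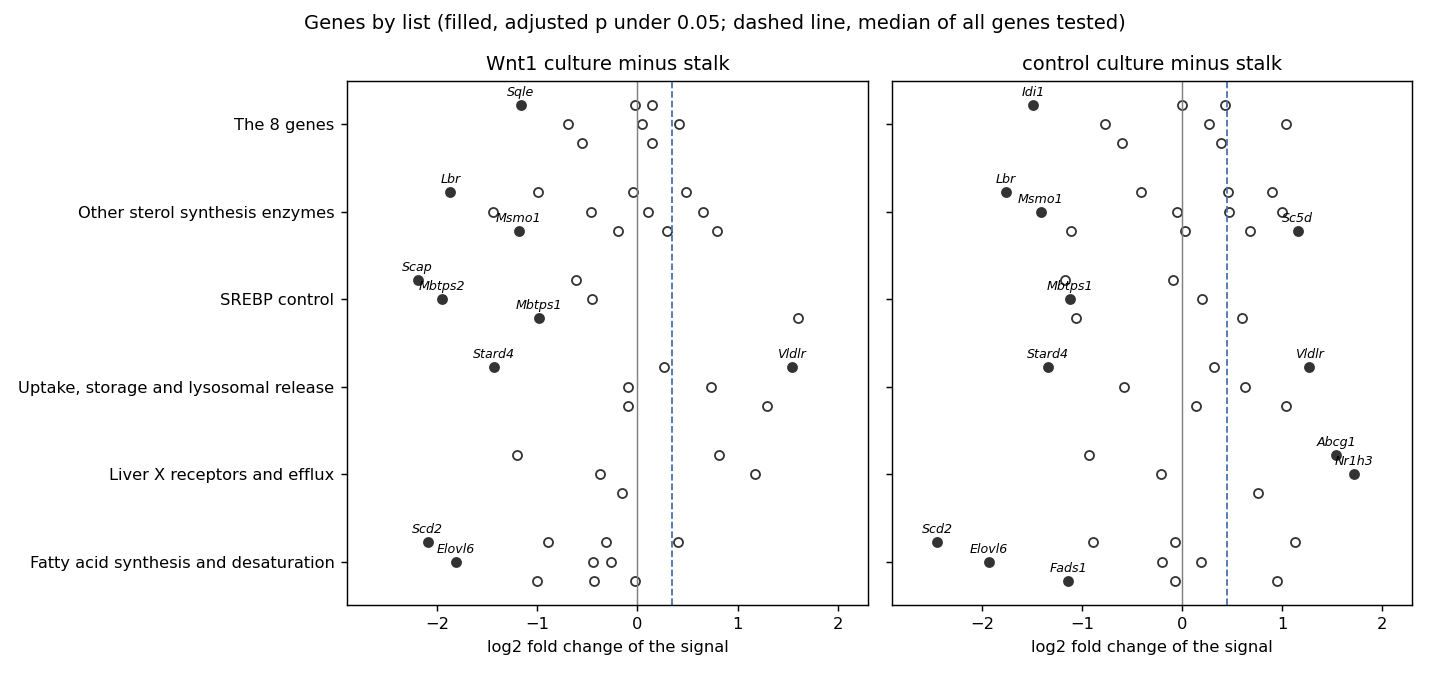
Log2 fold changes of the 8 genes and of 5 lists of related genes in Wnt1 culture (left) and control culture (right) against stalk, each point a gene, filled and named where the adjusted p was under 0.05. The dashed line is the median of all genes tested, 0.35 (left) and 0.45 (right), and most named genes lie left of 0, with Vldlr in both panels and Sc5d, Abcg1 and Nr1h3 in control culture to the right.

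The 8 genes shared little of their pattern over the 8 arrays. Pearson's r of each with the mean of their standardised profiles, which includes the gene itself, ran from -0.50 for Fdps to 0.75 for Cyp51, and between pairs of genes from -0.84 (Idi1 and Lss) to 0.79 (Hmgcs1 and Fdft1). The genes outside the set most like that mean profile, of 11293 with a group mean above 299, were Cacfd1, Lemd2, Fbxo30, Alg2 and Man2a2, with r from 0.91 to 0.94. The profile was highest on control culture replicate 2 (0.60 SD units) and stalk replicate 2 (0.34) and lowest on Wnt1 culture replicate 2 (-0.23). The arrays share culture and signal scale, and with so many candidates such values are a description only.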

How the data were processed

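RNA went through 2 cycles of cDNA amplification and biotin labelling before hybridisation, per the labels' protocols, to 8 Affymetrix arrays. The deposited values are linear signal intensities, 1 for each probe set. The authors used MAS5 in Affymetrix Expression Console, per the submitters' processing notes, and the settings and genome build are not stated there. The 2% trimmed mean is 500 on every array while the medians differ, so the distribution of signal differs between arrays. The origin of the higher medians in culture was not tested. The highest array median, 298.6 on control culture replicate 1, stood in for a noise floor. It lies above the uncultured medians of 76.5 to 99.8. A tip or stalk signal under 299 can thus exceed the middle of its own array. The number of arrays limits the precision.

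Probe sets with 1 symbol in the platform annotation (34945 of 45101, with 932 having several symbols and 9160 none, and 64 controls) entered the analysis if above 96.4 (40th percentile) on 2 or more arrays. The brightest probe set stood for its gene, giving 16115 genes. Tests used log2(value + 44), the 25th percentile of all values, so folds of dim genes are understated. All arrays entered 1 fit in limma 3.58.1 (R 4.3.3, eBayes with an intensity trend, no covariates), two-sided, with Benjamini-Hochberg adjustment over all genes and a threshold of 0.05. Each gene thus had 1 spread for all groups, although culture replicates varied more than uncultured ones. No exact permutation test of 2 arrays against 2 can reach that threshold, and none was run. The script was tested on simulated data. Figures were drawn with matplotlib 3.10.9.

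The 8 genes and the lists were chosen with earlier results of these data known. All 8 genes are named. From each list, up to 4 genes past the threshold per comparison are named by p, otherwise those with the largest change, and Srebf1, Srebf2, Fasn and Acaca were added for their role after their values were seen. The 5 genes most like the set were taken by correlation with its mean profile. The 19 alternatives per comparison changed the pseudocount, filter, normalization, floor, probe sets, variance model, arrays, replicate block and threshold.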

Additional observations from a re-analysis of the deposited data

How the results depend on the processing

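Counts and medians of the 8 genes moved with the processing. In control culture against stalk the count of genes past the threshold, 1 in the report, was 0 with quantile normalization, the signal floor, averaging the probe sets of a gene or no intensity trend, 2 with centring on the array median or with each probe set tested, 3 at an adjusted p under 0.10, and 0 to 2 without 1 array. The median, 0.13, was -0.33 with centring, -0.15 with the mean of probe sets and -0.18 over single probe sets. In Wnt1 culture against stalk the count, also 1, was 0 with quantile normalization, the floor, no trend or array weights, 2 with each probe set tested, and 0 to 1 without 1 array, and the median, 0.01, was -0.32, -0.42 and -0.46 in the order given for control culture. Leaving out an array gave medians of -0.12 to 0.30 (control culture) and -0.16 to -0.01 (Wnt1 culture) against stalk, -0.51 to -0.12 for Wnt1 against control culture, and -0.22 to -0.0082 for tip against stalk. Centring takes out the shift of all genes, and elsewhere the cause was not tested. Mbtps1 in control culture turned to 0.13 with the mean of its probe sets.

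Counts over all genes ran from 61 to 6498 for control culture against stalk (4251 in the report), from 65 to 5567 for Wnt1 culture against stalk (2615), from 0 to 61 for Wnt1 against control culture, and from 0 to 1 for tip against stalk. Without stalk replicate 1 or 2 they were 113 and 61 for control culture and 127 and 65 for Wnt1 culture. Without control culture replicate 1 the first count was 802, and without replicate 1 or 2 of Wnt1 culture the second was 816 and 5567. With the replicate number as a block, the counts of the 8 genes were unchanged at 1, 1, 0 and 0 in the order of these comparisons, while Scap and Mbtps2 in control culture (adjusted p = 0.027 and 0.048) and Fads1 in Wnt1 culture (0.043) passed with it, and the counts over all genes were 3957 for Wnt1 culture and 5424 for control culture, each against stalk. The labels do not say that a number marks a shared litter or day, and same-numbered arrays had correlations of deviations from -0.08 to 0.30. Where an arm is left with 1 array, that array is assumed to vary like the others. Signal over background limits 6 of the 21 probe sets, which stayed under 299.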
